A study of Mus musculus with 15 samples.

Results

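The Bcl2 family decides whether a cell keeps its mitochondria intact or starts the intrinsic pathway of apoptosis. Bcl2, Bcl2l1 (Bcl-xL), Mcl1 and the Bcl2a1 proteins (A1) are anti-apoptotic guards, Bax is an effector that opens the outer mitochondrial membrane, and the BH3-only proteins Bcl2l11 (Bim) and Bbc3 (Puma) bind the guards and free the effectors. Granulocytes are short-lived cells whose survival is set by cytokines through such proteins, whereas lung lymphocytes of the innate type depend on IL-7, a cytokine known for raising Bcl2.

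The genes described here are the 9 rows Bcl2, Bcl2l1, Mcl1, Bcl2a1a, Bcl2a1b, Bcl2a1d, Bax, Bcl2l11 and Bbc3 of a table of 21110 gene rows. They were taken by name, but with earlier results of these data known. All 9 were detected and tested. The 3 Bcl2a1 copies are nearly identical, so their levels were summed, which leaves 7 signals. Levels are FPKM, fragment counts scaled to transcript length and library size, so they can be compared between genes. The deposited values are whole numbers, so a level of 1 to 5 FPKM is coarse.

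RNA came from 3 cell types sorted from the lungs of C57BL6/J mice: basophils (FceR1+, CD49b+, c-kit-), eosinophils (SiglecF+, low Gr1, no autofluorescence) and natural helper cells, the innate lymphocytes now called ILC2 (lineage-, Thy1.2+, IL7Ra+, CD25+). Naive mice received no treatment, and papain mice received papain, a protease allergen, into the nose at 50 ug per mouse on 3 consecutive days. Each cell type had 2 naive and 2 papain libraries, with the papain eosinophils split into a CD11c- and a CD11c+ gate of 2 libraries each, and 1 library came from natural helper cells of papain mice labelled 3'UTRKO. Which gene lost its 3'UTR is not in the labels, which give no ages and list the same strain for that library. They do not say whether the 2 libraries of a group came from separate or pooled animals, so a p-value here reflects the spread between libraries alone, which may be technical.

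The Bcl2a1 copies are shown first because the largest of the 7 signals is their sum. In the GENCODE annotation of build GRCm38 each has a coding sequence of 519 bases. Bcl2a1a and Bcl2a1b differ at 11 bases (97.88% identity), Bcl2a1a and Bcl2a1d at 7 (98.65%), and Bcl2a1b and Bcl2a1d at 6 (98.84%). The first 30 bases of the coding strand hold 5 of the differing positions, which are in capitals:
Bcl2a1a: atgGctgagtCTgagCtcatgCatatccac
Bcl2a1b: atgGctgagtACgagTtcatgTatatccac
Bcl2a1d: atgTctgagtACgagTtcatgTatatccac
Of all 36-base stretches of the coding sequence, 80.6% of those in Bcl2a1a, 63.2% of those in Bcl2a1b and 92.8% of those in Bcl2a1d also occur in another copy. How reads that match several copies were shared out is not given in the sources used here, so the copies' separate levels are uncertain. Over the 15 libraries Bcl2a1a made up 18.53% to 27.11% of the sum, Bcl2a1b 34.98% to 56.12% and Bcl2a1d 25.35% to 42.41%. Their levels ran in parallel, with Pearson's r of 0.98 for Bcl2a1a with Bcl2a1b, 0.98 for Bcl2a1a with Bcl2a1d and 0.96 for Bcl2a1b with Bcl2a1d, as a description over libraries that share groups and, in part, reads.

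The sorted cells carried the markers of their labels, but not only those. The lists include genes of the sorting gates: Fcer1a for basophils, Siglec5 (SiglecF) for eosinophils, and Thy1, Il7r and Il2ra (CD25) for natural helper cells. High levels of these in their own cells follow in part from the sort. The median of the 10 basophil markers was 666 and 242 FPKM in the naive basophil libraries and 38.5 and 84 in the papain ones, against 3.5 FPKM or less in the other libraries. The median of the 10 eosinophil markers ran from 65 to 126 FPKM in the 6 eosinophil libraries, but Epx, which encodes eosinophil peroxidase, was listed at 0 in 4 of those 6. The median of the 12 natural helper cell markers ran from 194 to 232 FPKM in the 5 natural helper cell libraries and at most 19.5 FPKM elsewhere. Neutrophil markers, summed over 8 genes, ranged from 6517 to 16654 FPKM in the eosinophil libraries, from 3226 to 7542 in papain basophils, from 270 to 538 in naive basophils and from 15 to 174 in natural helper cells. Markers of other lung cells are given beside the papain comparisons. In bulk RNA, fewer cells of a type and less RNA per cell cannot be told apart.

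**Figure D1:**
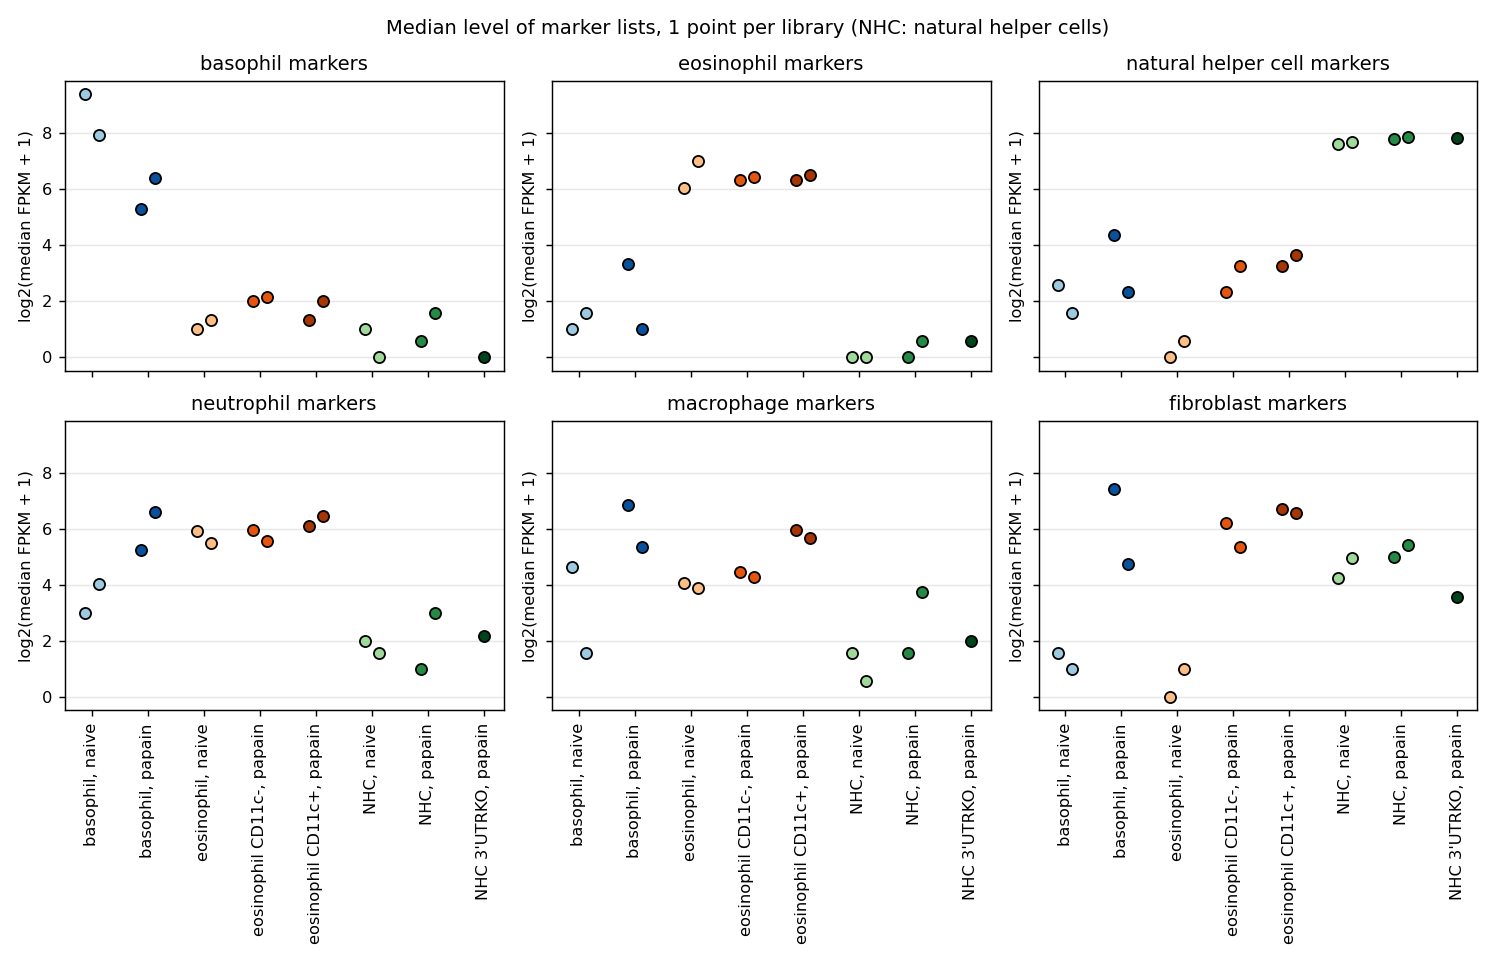
Median level of 6 marker lists in each of the 15 libraries, as log2(median FPKM + 1) on the vertical axis, with 1 point per library and the groups along the horizontal axis. Each cell type stands highest for its own list, neutrophil markers are also high in eosinophils and papain basophils, and fibroblast markers are higher in papain than in naive basophils and eosinophils.

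Differences between groups were tested with limma on log2(FPKM + 1) over 14255 genes and are given as log2 differences with their standard error. A gene was called when its p-value, adjusted by Benjamini-Hochberg over all genes tested, was under 0.05. A log2 difference on this scale understates the change of a gene at a few FPKM.

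Among the anti-apoptotic genes, Bcl2 was highest in natural helper cells. Bcl2 stood at 49 and 38 FPKM in naive natural helper cells, 25 and 29 in papain natural helper cells and 47 in the 3'UTRKO library. In the other 10 libraries it was between 1 and 7 FPKM, with 4 and 1 in naive and 3 and 1 in papain basophils, and 1 and 1 in naive, 1 and 2 in CD11c- and 2 and 7 in CD11c+ eosinophils. No granulocyte library reached a natural helper cell library, and each granulocyte group overlapped with its neighbour in the order of the means. Bcl2 was lower than in naive natural helper cells by a log2 difference of -3.80 ± 0.57 in naive basophils (adjusted p = 0.0022) and by -4.46 ± 0.57 in naive eosinophils (adjusted p = 0.000517). In papain mice the differences were -3.30 ± 0.57 for basophils (adjusted p = 0.00596) and -3.51 ± 0.57 for CD11c- eosinophils (adjusted p = 0.00345). T cell markers, summed over 8 genes, were likewise highest in natural helper cells. Their sums were 279 and 292 FPKM in naive, 165 and 205 in papain and 153 in 3'UTRKO libraries, and at most 140 elsewhere. The part of T cell markers in the level of Bcl2 was not tested.

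Mcl1, a guard with a very short-lived protein, had the opposite order to that of Bcl2. It stood at 391 and 367 FPKM in naive eosinophils, 340 and 314 in CD11c- and 342 and 399 in CD11c+ eosinophils. Basophils were lower, with 143 and 100 FPKM before and 181 and 234 after papain. Natural helper cells were lowest, with 86 and 84 FPKM before papain, 69 and 108 after it and 66 in the 3'UTRKO library. Eosinophil libraries did not overlap with those of either other cell type. Mcl1 was higher in naive eosinophils than in naive natural helper cells by 2.14 ± 0.25 (adjusted p = 0.000307), and lower in naive basophils than in naive eosinophils by a log2 difference of -1.66 ± 0.25 (adjusted p = 0.00255). Naive basophils differed from naive natural helper cells by 0.49 (95% interval -0.07 to 1.05), which was not called (adjusted p = 0.204) but was called after median-ratio scaling (0.88, adjusted p = 0.0249).

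The Bcl2a1 sum, known as a target of NF-kB in activated leukocytes, was the highest of the 7 signals in 14 of the 15 libraries. If reads shared by the copies were counted for each of them, the sum would be too high: the highest single copy exceeded Mcl1 in 12 libraries and the mean of the 3 copies did so in 8. It was 923 and 1039 FPKM in naive eosinophils, 1036 and 699 in CD11c- eosinophils and 1165 and 1254 in CD11c+ eosinophils. Papain basophils, at 886 and 920 FPKM, lay within that range, while naive basophils stood at 254 and 91. Natural helper cells had 131 and 203 FPKM before papain, 290 and 340 after it and 220 in the 3'UTRKO library. Naive basophils and naive natural helper cells overlapped, and naive eosinophils stood apart from both. The naive eosinophil level was higher than that of natural helper cells by 2.58 ± 0.43 (adjusted p = 0.00218), and the naive basophil level was lower than that of eosinophils by a log2 difference of -2.68 ± 0.43 (adjusted p = 0.00362). Neutrophil markers, given above, were likewise highest in eosinophils among naive cells, and their part in the levels of Mcl1 and Bcl2a1 was not tested.

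Bcl2l1 had its lowest values in naive basophils, at 9 and 3 FPKM. Naive natural helper cells had 22 and 35 FPKM and naive eosinophils 16 and 19. The levels were 20 and 59 FPKM in papain basophils, 36 and 26 in CD11c- eosinophils, 40 and 50 in CD11c+ eosinophils, 44 and 53 in papain natural helper cells and 30 in the 3'UTRKO library. In each cell type both papain libraries exceeded both naive libraries, but the 3'UTRKO library lay between the naive natural helper cell libraries. Such a lack of overlap, in either direction, held for 34.6% of all genes in natural helper cells and 37.3% in CD11c- eosinophils. That share was not computed for basophils and CD11c+ eosinophils, so the lack of overlap there is a description without a background. Of these papain differences in Bcl2l1 only that of basophils was called. Papain basophils overlapped with each other papain group, while CD11c- eosinophils lay below both CD11c+ eosinophils and papain natural helper cells. Naive basophils were lower than naive natural helper cells by a log2 difference of -2.19 ± 0.54 (adjusted p = 0.0221). That call was lost without naive basophil library 2 (-1.52, adjusted p = 0.143), without naive natural helper cell library 1 (-2.51, adjusted p = 0.0581) and without library 2 of that group (-1.86, adjusted p = 0.114).

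Among the pro-apoptotic genes, Bcl2l11 had its highest naive level in basophils. It stood at 80 and 72 FPKM in basophils, 39 and 37 in eosinophils and 19 and 21 in natural helper cells. These 3 groups did not overlap. B cell markers, summed over 9 genes, had the same order among naive cells. Their sums were 202 and 367 FPKM in basophils, 57 and 45 in eosinophils and 4 and 2 in natural helper cells. The part of B cell markers in the level of Bcl2l11 was not tested. The naive basophil level of Bcl2l11 was higher than that of natural helper cells by 1.87 ± 0.22 (adjusted p = 0.00063) and than that of eosinophils by 0.98 ± 0.22 (adjusted p = 0.0192). For naive eosinophils against natural helper cells it was higher by 0.89 ± 0.22 (adjusted p = 0.0157). The first of these differences was called under every alternative tried. The second was lost without any 1 of its 4 libraries: 0.90 (adjusted p = 0.0777) and 1.05 (adjusted p = 0.0685) without naive basophil libraries 1 and 2, and 1.02 (adjusted p = 0.0864) and 0.94 (adjusted p = 0.0963) without naive eosinophil libraries 1 and 2. The third was lost without naive eosinophil library 1 (0.86, adjusted p = 0.0833), without library 2 (0.93, adjusted p = 0.0596), without naive natural helper cell library 1 (0.83, adjusted p = 0.0799), and after quantile normalization.

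Bbc3, a direct p53 target, was a low signal, among naive cells at 11 and 15 FPKM in basophils, 11 and 8 in eosinophils and 5 and 3 in natural helper cells. Basophils and eosinophils overlapped. The level in naive basophils exceeded that in naive natural helper cells by 1.5 ± 0.37 (adjusted p = 0.0216), a call lost without naive basophil library 2 (1.29, adjusted p = 0.126) and without naive natural helper cell library 2 (1.21, adjusted p = 0.11). The difference of 1.09 ± 0.37 between naive eosinophils and natural helper cells had an adjusted p of 0.056 and was called with a pseudocount of 5 and after both rescalings. Bax varied least, from 38 to 129 FPKM over the 15 libraries. In naive cells it stood at 62 and 57 FPKM in basophils, 56 and 59 in eosinophils and 43 and 42 in natural helper cells, and no naive difference in Bax was called.

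Counted over the 7 signals, 3 were called between naive basophils and eosinophils, where 13.9% of all genes tested were called. Between naive basophils and natural helper cells 4 were called, against 20.6% of all genes, and between naive eosinophils and natural helper cells 4, against 28.1% of all genes. These shares are a background for the counts and not a test of the list. The calls for Bcl2, Mcl1 and Bcl2a1 between naive eosinophils and natural helper cells were made under all 12 alternatives.

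**Figure D2:**
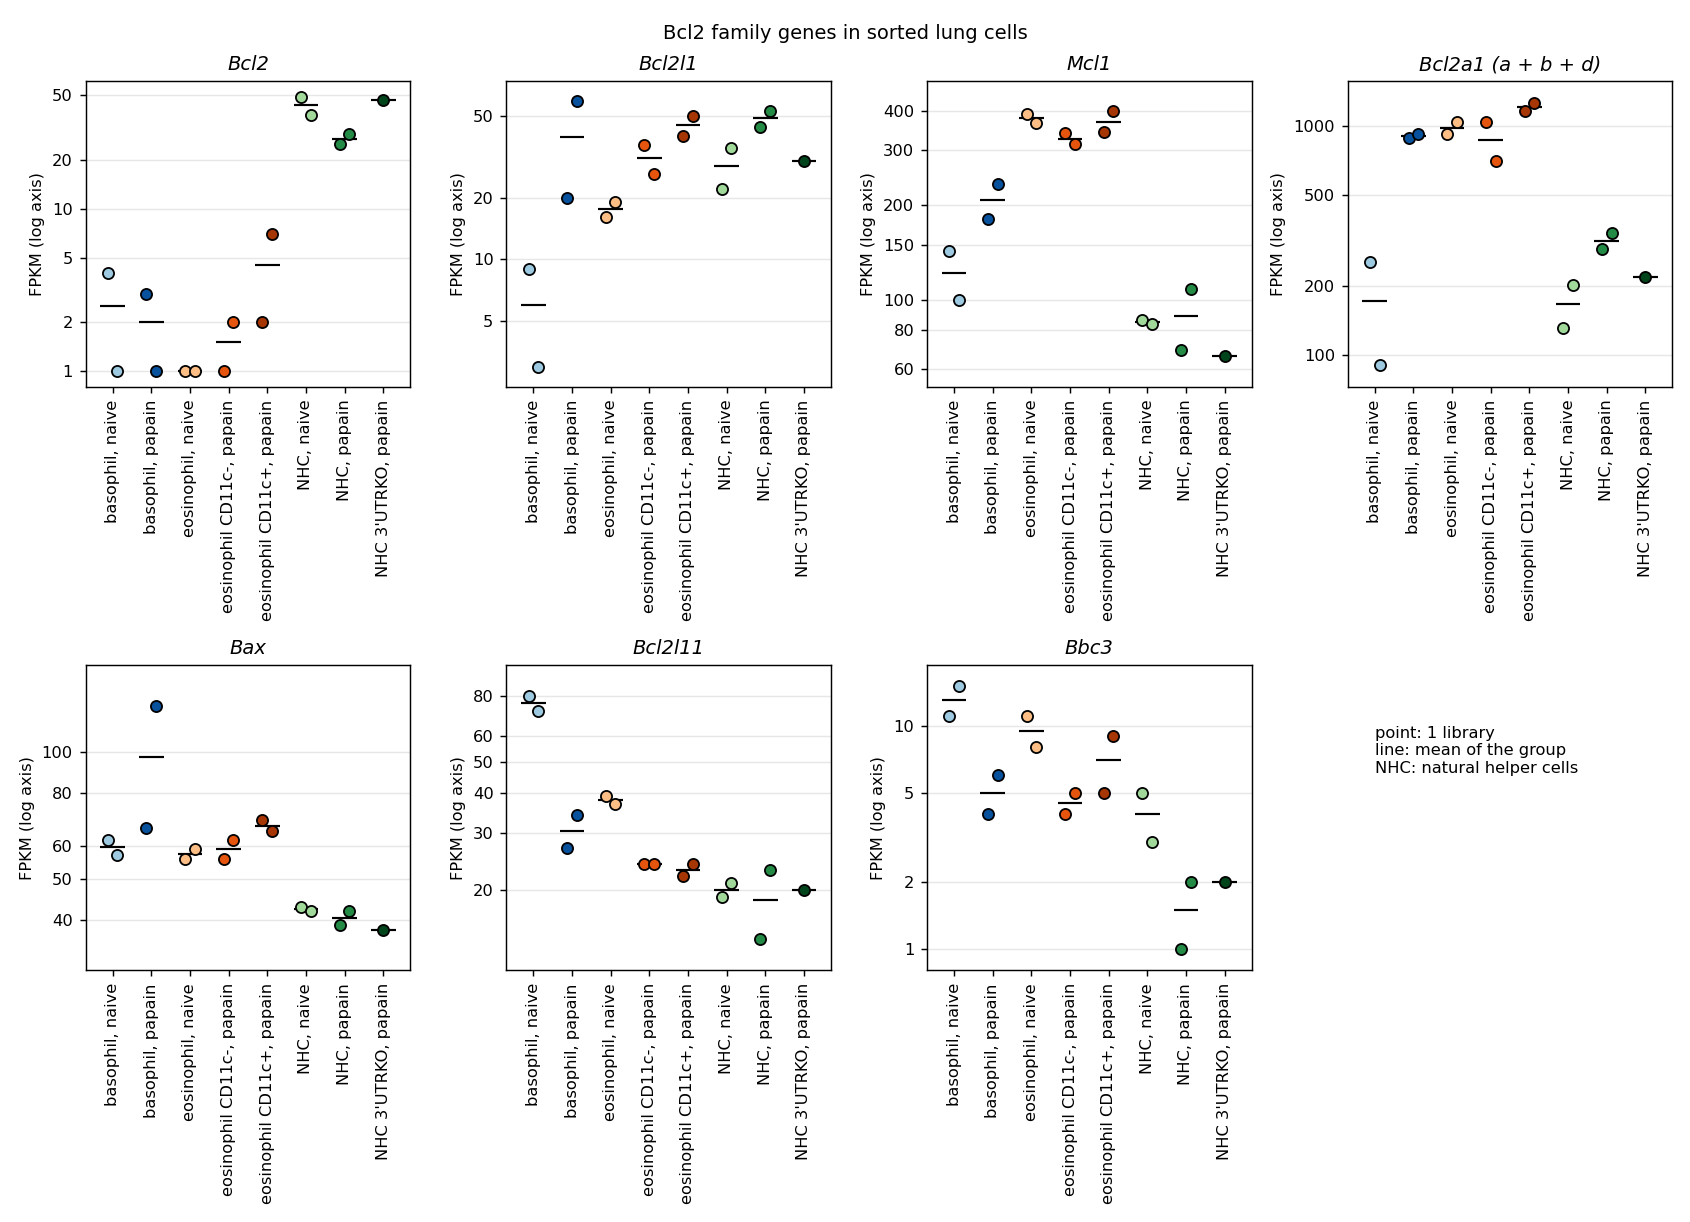
FPKM of the 7 signals in each of the 15 libraries on a log axis, with 1 panel per signal, 1 point per library and a line at the group mean. Bcl2 is at 25 FPKM or more only in natural helper cells, Mcl1 is at 314 FPKM or more only in eosinophils, and Bcl2l11 is highest in naive basophils at 80 and 72 FPKM.

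The papain response of basophils changed 5 of the 7 signals, against a background of 26.0% of all genes tested. Bcl2a1, Bcl2l1 and Mcl1 rose, against 22.1% of all genes, and Bcl2l11 and Bbc3 fell, against 3.88%. Of all called genes 85.1% were higher, a share that was 65.5% with median-ratio scaling and 45.3% with quantile normalization. The median log2 difference of all genes was 0.50 in this comparison, so differences are also given relative to it. The Bcl2a1 sum went from 254 and 91 FPKM in naive basophils to 886 and 920 in papain basophils, a log2 difference of 2.56 ± 0.43 or 5.9-fold (adjusted p = 0.00425), which is 2.06 above the median of all genes. It was called without each of the 4 libraries in turn, with values from 1.83 to 3.30. Entered as separate rows, Bcl2a1a rose by 2.55, Bcl2a1b by 2.56 and Bcl2a1d by 2.52, with adjusted p-values of 0.00486, 0.00309 and 0.00564.

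Bcl2l11 showed the opposite change, from 80 and 72 FPKM in naive to 27 and 34 in papain basophils. It fell by 1.3 ± 0.22 on the log2 scale (adjusted p = 0.00457), 1.80 below the median of all genes, and was called without each library in turn. Papain basophils thus lay below the naive eosinophil level of 39 and 37 FPKM. Bbc3 went from 11 and 15 FPKM to 4 and 6, a log2 difference of -1.23 ± 0.37 (adjusted p = 0.0382). For Bbc3 the call was lost without any 1 library: -1.44 (adjusted p = 0.0559) and -1.02 (adjusted p = 0.204) without naive libraries 1 and 2, and -0.99 (adjusted p = 0.141) and -1.47 (adjusted p = 0.0571) without papain libraries 1 and 2. Its value moved to -2.02 after quantile normalization.

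Bcl2l1 went from 9 and 3 FPKM to 20 and 59, a log2 difference of 2.49 ± 0.54 or 5.61-fold (adjusted p = 0.0122). The 2 papain libraries differed by 39 FPKM, more than the lower of them. The call was lost without naive library 2 (1.83, adjusted p = 0.0877) and without papain library 2 (1.73, adjusted p = 0.0592). Mcl1 went from 143 and 100 FPKM to 181 and 234, a log2 difference of 0.78 ± 0.25 (adjusted p = 0.0477), only 0.28 above the median of all genes. It was lost without naive library 2 (0.52, adjusted p = 0.282), without papain library 2 (0.59, adjusted p = 0.186), after median-ratio scaling (0.27, adjusted p = 0.432) and after quantile normalization (0.38, adjusted p = 0.222). Bax went from 62 and 57 FPKM to 66 and 129 (0.63 ± 0.26, adjusted p = 0.109). It was called only without papain library 1 (1.10), a fit in which the papain group is 1 library, at 129 FPKM. Bcl2 stood at 4 and 1 against 3 and 1 FPKM (-0.16, 95% interval -1.45 to 1.13, adjusted p = 0.904). None of the 5 calls was made when only the 4 basophil libraries were fitted, with adjusted p-values from 0.101 for Bcl2l11 to 0.224 for Mcl1.

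The make-up of these basophil libraries changed with papain, in a comparison where 22.1% of all genes rose and 3.88% fell. Of the 10 basophil markers 8 fell, with a median of -2.68, and their sum went from 7194 and 6328 FPKM to 791 and 2197, with none at 0. Of the 8 neutrophil markers 4 rose (median 3.07), with Camp listed at 0 in both naive libraries and Ltf in 1 of them. All 7 fibroblast markers rose (median 5.35), from sums of 52 and 5 FPKM to 4052 and 1571, with Pdgfra at 0 in both naive libraries. Of 12 epithelial markers 9 rose (median 3.06; sums of 6652 and 8736 FPKM against 20546 and 34725), and of 8 endothelial markers 6 rose (median 3.43; sums of 50 and 29 FPKM against 114 and 349). Of 12 macrophage markers 3 rose, which is near the share of all genes, with sums that went from 781 and 206 FPKM to 16287 and 1054. Of 9 B cell markers 3 fell (sums of 202 and 367 FPKM against 117 and 35), and none of 8 T cell markers was called. The part of these markers in the changes of Bcl2a1, Bcl2l1, Mcl1, Bcl2l11 and Bbc3 was not tested.

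In eosinophils, limma called none of the 7 signals in either papain gate. The same naive libraries serve both gates. In CD11c- eosinophils 2.24% of all genes were called. Of the 7 signals 2 had an unadjusted p under 0.05, Bcl2l11 and Bbc3, against 14.5% of all genes. Bcl2l11 stood at 39 and 37 FPKM in naive and 24 and 24 in CD11c- eosinophils (-0.64 ± 0.22, adjusted p = 0.218), and Bbc3 at 11 and 8 against 4 and 5 (-0.92 ± 0.37, adjusted p = 0.288). For 4 of the 7 signals, Bcl2l11, Bbc3, Bcl2l1 and Mcl1, the naive and papain libraries did not overlap, which held for 37.3% of all genes. The call for Bcl2l11 was made only when the compared groups alone were fitted (adjusted p = 0.0261). The remaining intervals ran from -0.77 to 0.35 for Mcl1, from -1.17 to 0.76 for the Bcl2a1 sum, from -0.55 to 0.62 for Bax, from -0.44 to 2.00 for Bcl2l1 and from -1.0 to 1.58 for Bcl2.

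In CD11c+ eosinophils 12.1% of all genes were called. An unadjusted p under 0.05 was found for 3 of the 7 signals, Bcl2, Bcl2l1 and Bcl2l11, against 28.7% of all genes. Bcl2l11 stood at 22 and 24 FPKM, below both naive libraries (-0.70 ± 0.22, adjusted p = 0.0709). The median of all genes was 0.33 in this comparison, and Bcl2l11 was called after median-ratio scaling (-1.08, adjusted p = 0.0196) and after quantile normalization (-0.93, adjusted p = 0.0264). Bcl2l1 stood at 40 and 50 FPKM against 16 and 19 in naive eosinophils (1.31 ± 0.54, adjusted p = 0.146), and Bcl2 at 2 and 7 FPKM against 1 and 1 (1.29 ± 0.57, adjusted p = 0.173). Mcl1 differed by -0.04 (95% interval -0.60 to 0.52) and the Bcl2a1 sum by 0.30 (95% interval -0.66 to 1.27).

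Markers of other cell types also rose in the papain eosinophils, where 2.24% of all genes were called in CD11c- and 12.1% in CD11c+ cells. Of the 7 fibroblast markers 6 rose in CD11c- and 7 in CD11c+ eosinophils, with sums of 7 and 25 FPKM in naive, 1159 and 917 in CD11c- and 2480 and 2370 in CD11c+ libraries. Col3a1 and Pdgfra were listed at 0 in both naive libraries. Of the 12 epithelial markers 2 rose in CD11c- and 6 in CD11c+ cells, with sums of 713 and 1815 FPKM in naive, 6583 and 8973 in CD11c- and 9942 and 8389 in CD11c+ libraries. The 12 macrophage markers had 5 higher in CD11c+ and none called in CD11c- cells (sums of 748 and 1092, 3213 and 3162, and 1334 and 972 FPKM in naive, CD11c+ and CD11c- libraries). Of the 12 natural helper cell markers 1 rose in CD11c- and 3 in CD11c+ cells, with sums of 43 and 94 FPKM in naive, 170 and 189 in CD11c- and 176 and 191 in CD11c+ libraries. In CD11c+ cells 3 of 8 endothelial, 2 of 8 T cell and 1 of 8 neutrophil markers rose as well and 1 of 10 eosinophil markers fell, and in CD11c- cells limma called none of these. The T cell sums were 3 and 1 FPKM in naive, 19 and 102 in CD11c- and 96 and 122 in CD11c+ libraries. The part of these markers in the levels of the 7 signals was not tested.

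Between the CD11c+ and CD11c- gates, where 0.0561% of all genes were called, none of the 7 signals was called by limma and none had an unadjusted p under 0.05, against 9.0% of all genes. The 8 genes called between the gates became 2 without CD11c- library 1 and 498 without CD11c+ library 1. The largest difference was that of Bcl2, 1.0 (95% interval -0.29 to 2.29), from 1 and 2 to 2 and 7 FPKM. For Bcl2l11 it was -0.06 (95% interval -0.56 to 0.44), and for the Bcl2a1 sum 0.51 (95% interval -0.46 to 1.47).

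In natural helper cells, where 0.786% of all genes were called, limma called none of the 7 signals after papain, and 1, Bbc3, had an unadjusted p under 0.05, against 10.9% of all genes. Bbc3 went from 5 and 3 FPKM to 1 and 2 (-1.0 ± 0.37, adjusted p = 0.336), at levels where rounding to whole numbers weighs most. The Bcl2a1 sum was 131 and 203 FPKM before papain against 290 and 340 after it (0.94 ± 0.43, adjusted p = 0.472). Bcl2l1 stood at 22 and 35 against 44 and 53 FPKM (0.78 ± 0.54, adjusted p = 0.695), and Bcl2 at 49 and 38 against 25 and 29 FPKM (-0.66 ± 0.57, adjusted p = 0.766). For these 4 signals the naive and papain libraries did not overlap, which held for 34.6% of all genes. Bcl2l11, at 19 and 21 against 14 and 23 FPKM, differed by -0.14 (95% interval -0.64 to 0.36). Mcl1 differed by 0.02 (95% interval -0.54 to 0.58) and Bax by -0.07 (95% interval -0.65 to 0.52). In this comparison limma called none of the genes of the 10 marker lists. T cell sums were 279 and 292 FPKM before papain against 165 and 205 after it, and their part in the Bcl2 levels was not tested. Macrophage sums were 170 and 35 FPKM before papain against 177 and 1304 after it, epithelial sums 112 and 1839 against 729 and 2019, and fibroblast sums 454 and 323 against 494 and 689.

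**Figure D3:**
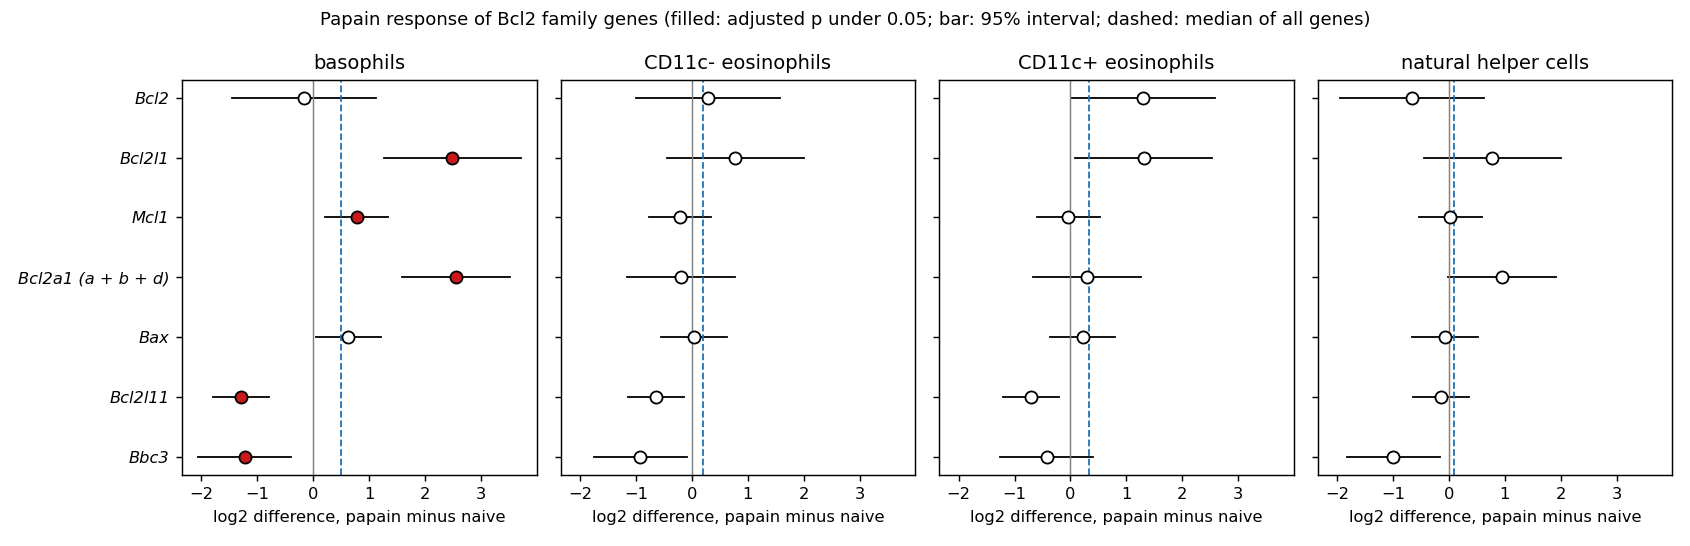
Log2 difference of log2(FPKM + 1), papain minus naive, for the 7 signals in basophils, CD11c- eosinophils, CD11c+ eosinophils and natural helper cells, with 95% intervals; filled points have an adjusted p under 0.05 and the dashed line is the median of all genes tested. The 5 called signals are all in basophils, with Bcl2a1 at 2.56 and Bcl2l1 at 2.49 to the right and Bcl2l11 at -1.3 and Bbc3 at -1.23 to the left.

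The difference between the responses of cell types was tested itself, and limma called none of the 7 signals in any of the 3 such comparisons. For basophils against natural helper cells 6.76% of all genes were called. An unadjusted p under 0.05 was found for 2 of the 7 signals, against 22.9% of all genes. There the Bcl2l11 response of basophils was lower by a log2 difference of -1.15 ± 0.31 (adjusted p = 0.0627). It was called with a pseudocount of 5 (-1.08, adjusted p = 0.0462), after median-ratio scaling (-1.37, adjusted p = 0.0391), after quantile normalization (-1.23, adjusted p = 0.0452) and without papain natural helper cell library 1 (-1.49, adjusted p = 0.029). The difference in the Bcl2a1 response was 1.62 ± 0.60 (adjusted p = 0.148) and was called without naive basophil library 1 (2.36, adjusted p = 0.02). Without papain basophil library 1, which leaves 1 papain basophil library, the Bax response differed by 1.17.

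Against CD11c- eosinophils, where 2.34% of all genes were called, the Bcl2a1 response of basophils was larger by 2.76 ± 0.60 (adjusted p = 0.0557), and 2 of the 7 signals had an unadjusted p under 0.05, against 16.7% of all genes. The Bcl2a1 difference was called without naive basophil library 1 (3.50), and the Bax difference without papain basophil library 1 (1.07). Each of these fits leaves 1 library in that group. Entered as separate rows, Bcl2a1b was called here (2.91, adjusted p = 0.0338), and Bcl2a1a (2.47, adjusted p = 0.0864) and Bcl2a1d (2.65, adjusted p = 0.0758) were not. The Bcl2l1 response was larger in basophils by 1.71 ± 0.76 than in natural helper cells (adjusted p = 0.222) and by 1.71 ± 0.76 than in CD11c- eosinophils (adjusted p = 0.304). Between CD11c- eosinophils and natural helper cells, where 1.21% of all genes were called, none of the 7 had an unadjusted p under 0.05, against 11.1% of all genes, and the largest difference was that of Bcl2a1 at -1.14 (95% interval -2.51 to 0.22).

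Among papain cells, basophils differed from natural helper cells in 6 of the 7 signals, against 19.7% of all genes called. Beside Bcl2, which was lower, basophils had higher Mcl1 (1.24 ± 0.25, adjusted p = 0.0112), Bcl2a1 (1.52 ± 0.43, adjusted p = 0.0376), Bax (1.17 ± 0.26, adjusted p = 0.0167), Bcl2l11 (0.72 ± 0.22, adjusted p = 0.0498) and Bbc3 (1.27 ± 0.37, adjusted p = 0.0417). As separate rows, Bcl2a1a (adjusted p = 0.0281) and Bcl2a1b (0.0169) were called and Bcl2a1d (0.136) was not. Only the Bcl2 call was kept without each library in turn. Without papain basophil library 1 the value was 1.55 for Bcl2a1 (adjusted p = 0.0763). Without papain basophil library 2 it was 1.06 for Mcl1 (adjusted p = 0.0692), 1.49 for Bcl2a1 (adjusted p = 0.142), 0.56 for Bcl2l11 (adjusted p = 0.219) and 1.03 for Bbc3 (adjusted p = 0.194), and the Bax difference shrank to 0.69 (adjusted p = 0.0194). Without papain natural helper cell library 1 it was 0.92 for Mcl1 (adjusted p = 0.0911), 1.41 for Bcl2a1 (adjusted p = 0.183), 1.12 for Bax (adjusted p = 0.11), 0.38 for Bcl2l11 (adjusted p = 0.297) and 0.98 for Bbc3 (adjusted p = 0.246). Without library 2 of that group it was 1.64 for Bcl2a1 (adjusted p = 0.114), 1.22 for Bax (adjusted p = 0.0685) and 1.56 for Bbc3 (adjusted p = 0.0757).

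CD11c- eosinophils differed from papain natural helper cells in 2 of the 7 signals, against 16.6% of all genes called: Bcl2 was lower, and Mcl1 was higher by 1.91 ± 0.25 (adjusted p = 0.00109). Both were called under all 12 alternatives. The Bcl2a1 sum was higher by 1.44 ± 0.43 with an adjusted p of 0.0508, and was called with a pseudocount of 5 and after both rescalings. As separate rows, Bcl2a1a (adjusted p = 0.0401) and Bcl2a1b (0.0139) were called and Bcl2a1d (0.273) was not. Between papain basophils and CD11c- eosinophils, where 11.4% of all genes were called, limma called none of the 7 signals, and 2 had an unadjusted p under 0.05, against 28.4% of all genes. There the Bcl2a1 sum differed by 0.09 (95% interval -0.88 to 1.05), against the log2 difference of -2.68 between the naive cells. Mcl1 was lower in basophils by a log2 difference of -0.66 ± 0.25 (adjusted p = 0.116) and was called after quantile normalization (-1.0, adjusted p = 0.0143). Bax differed by 0.64 ± 0.26 (adjusted p = 0.143) and was called without papain basophil library 1 (1.12), which leaves 1 papain basophil library.

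The 1 library of 3'UTRKO natural helper cells gave Bcl2 at 47 FPKM, against 25 and 29 in the papain natural helper cells of the other group. Its Bcl2l1 was 30 FPKM against 44 and 53, its Bcl2a1 sum 220 against 290 and 340, its Mcl1 66 against 69 and 108, its Bax 38 against 39 and 42, its Bcl2l11 20 against 14 and 23, and its Bbc3 2 against 1 and 2. Outside the papain pair lay 5 of the 7 signals, as did 57.8% of all genes. With this lone library assumed to vary like the other groups, limma called none of the 7, where 0.568% of all genes were called, and none had an unadjusted p under 0.05, against 9.23% of all genes. The Bcl2 difference was 0.78 ± 0.70 (adjusted p = 0.881).

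The anti-apoptotic RNA of each library was described as the summed FPKM of Bcl2, Bcl2l1, Mcl1 and Bcl2a1. The sum was 410 and 195 FPKM in naive basophils, 1090 and 1214 in papain basophils, 1331 and 1426 in naive, 1413 and 1041 in CD11c- and 1549 and 1710 in CD11c+ eosinophils. Natural helper cells had 288 and 360 FPKM before papain, 428 and 530 after it and 363 in the 3'UTRKO library. With the Bcl2a1 copies summed, Bcl2a1 supplied 45.5% to 81.3% of the total, and exceeded Mcl1 in all libraries but naive basophil library 2, where Mcl1 supplied 51.3% and Bcl2a1 46.7%. Within natural helper cells Bcl2 supplied 17.0% and 10.6% before papain, 5.84% and 5.47% after it and 13% in the 3'UTRKO library, and at most 0.976% in any granulocyte library. Bcl2l1 supplied 7.64% to 10.3% in natural helper cells and 1.2% to 4.86% in granulocytes.

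**Figure D4:**
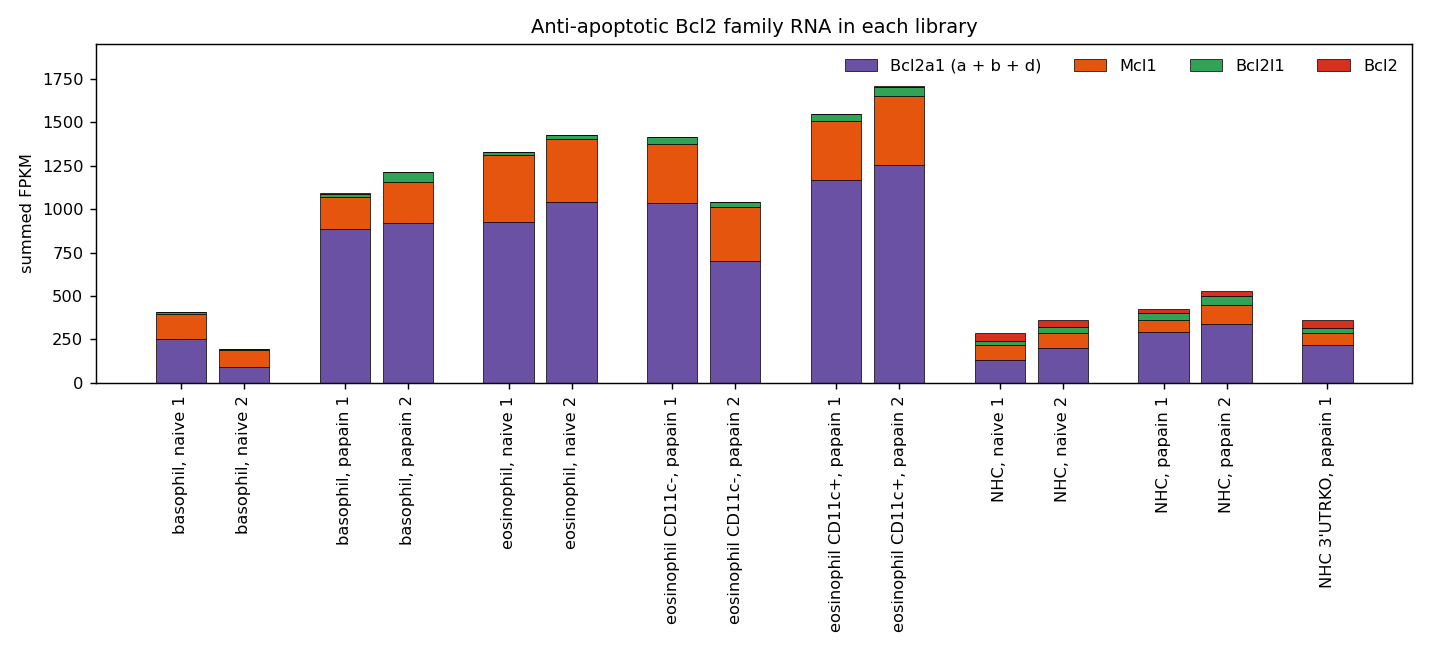
Summed FPKM of the anti-apoptotic genes in each library, stacked by gene, with the libraries along the horizontal axis. Naive basophils and natural helper cells sum to between 195 and 530 FPKM, papain basophils and all eosinophils to between 1041 and 1710 FPKM, and Bcl2 is visible only in natural helper cells.

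Set against Bcl2l11, whose protein these guards bind, the anti-apoptotic sum was 5.13 and 2.71 times the level of Bcl2l11 in naive basophils, the lowest of all groups, and 40.4 and 35.7 times in papain basophils. The ratio was 34.1 and 38.5 in naive, 58.9 and 43.4 in CD11c- and 70.4 and 71.3 in CD11c+ eosinophils, and 15.2 and 17.1 in naive, 30.6 and 23.0 in papain and 18.2 in 3'UTRKO natural helper cells. In each cell type both papain libraries had a higher ratio than both naive libraries. These are ratios of RNA levels, given with no test. They use Bcl2l11 alone. Pmaip1, another BH3-only gene described below, rose in natural helper cells, from 5 and 4 to 13 and 16 FPKM, and fell in basophils and CD11c+ eosinophils. The sum is also too high if reads shared by the Bcl2a1 copies were counted for each of them.

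Across the 15 libraries Mcl1 and the Bcl2a1 sum ran together (Pearson's r of log2(FPKM + 1) 0.88), as did Bcl2l11 and Bbc3 (0.82), while Bcl2 ran against Mcl1 (-0.77) and Bcl2l1 against Bcl2l11 (-0.78). The libraries fall into cell types, so these values describe the groups and carry no test. Among 4390 genes averaging at least 10 FPKM, the 3 whose levels were most like those of Bcl2 over the 15 libraries were Rltpr (0.98), Xlr4b (0.98) and Il9r (0.98), the last encoding the IL-9 receptor. For Mcl1 they were Pla2g7 (0.99), Nuak2 (0.99) and Cd300lf (0.99). For the Bcl2a1 sum they were Phf23 (0.97), Ccrn4l (0.96) and Wtap (0.96), and for Bcl2l1 Ywhab (0.92), Nsfl1c (0.92) and Suds3 (0.91). For Bcl2l11 they were Tbc1d4 (0.92), Mylip (0.92) and Nt5c3 (0.91), for Bbc3 Dusp1 (0.92), Sun2 (0.90) and Cdyl2 (0.89), and for Bax Ifitm3 (0.95), Lcn2 (0.95) and Rasip1 (0.94).

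Of 16 further family genes 14 were tested. In papain basophils 4 rose and 1 fell (median 0.45, against 0.50 for all genes), where 22.1% of all genes rose and 3.88% fell. The gene that fell was Pmaip1 (Noxa), the BH3-only protein that binds Mcl1 and A1: it went from 128 and 89 FPKM to 35 and 47 (-1.37 ± 0.22, adjusted p = 0.00372). Bnip3, a mitochondrial protein induced by low oxygen, went from 2 and 2 FPKM to 13 and 28 (2.75 ± 0.40, adjusted p = 0.0024). Bok went from 1 and 0 FPKM to 3 and 9 (2.16 ± 0.54, adjusted p = 0.0207), and Bik, called as well, was listed at 0 in both naive libraries and stood at 3 and 14 FPKM after papain. Without naive basophil library 2, Bok (adjusted p = 0.142) and Bik (0.0587) were no longer called, and without papain basophil library 2 Bok was not (0.102). Pmaip1 and Bnip3 were called without each library in turn.

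Pmaip1 changed in the other direction in natural helper cells, from 5 and 4 FPKM to 13 and 16 (1.49 ± 0.22, adjusted p = 0.0183). There it was the only call among the 14, against 0.786% of all genes called. In CD11c+ eosinophils, where 12.1% of all genes were called, Pmaip1 fell from 124 and 130 FPKM to 56 and 48 (-1.28 ± 0.22, adjusted p = 0.00932). Bnip3, at 2 and 4 FPKM in naive cells, rose to 19 and 25 there (2.56 ± 0.40, adjusted p = 0.00621). In CD11c- eosinophils none of the 14 was called by limma, against 2.24% of all genes, with Pmaip1 at 72 and 68 FPKM. The call of Pmaip1 was lost in natural helper cells without any 1 of the 4 libraries (adjusted p from 0.0540 to 0.181). In CD11c+ eosinophils it was lost without naive eosinophil library 1 (0.0631) or 2 (0.0532) or CD11c+ library 2 (0.0591), and that of Bnip3 without naive eosinophil library 1 (0.0606). Among naive cells Pmaip1 was higher than in natural helper cells by 4.3 ± 0.22 in basophils (adjusted p = 8.82e-06) and by 4.55 ± 0.22 in eosinophils (adjusted p = 4.7e-06). Bak1, the other effector beside Bax, was at 23 and 24 FPKM in naive eosinophils, above naive basophils at 8 and 4 and naive natural helper cells at 7 and 8 (adjusted p = 0.00581 and 0.00796), the latter lost without naive natural helper cell library 1 (adjusted p = 0.0513). Bid, which links death receptors to mitochondria, stood among naive cells at 21 and 25 FPKM in eosinophils and 2 and 1 in natural helper cells (3.29 ± 0.44, adjusted p = 0.000703).

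Of 18 genes of the caspase machinery, which acts after the mitochondria open or downstream of death receptors, 4 rose and 1 fell in papain basophils (median 0.46, against 0.50 for all genes), or 5 of 18 called, near the 26.0% of all genes called. They included Casp8, the initiator at death receptors, from 10 and 2 FPKM to 20 and 23 (1.97 ± 0.48, adjusted p = 0.0192), Casp6 from 3 and 1 FPKM to 11 and 5 (1.58 ± 0.49, adjusted p = 0.0431), and Cycs, the cytochrome c gene, from 13 and 6 FPKM to 30 and 21 (1.4 ± 0.36, adjusted p = 0.0234). The calls changed with single libraries: Casp8 was lost without papain basophil library 1 (adjusted p = 0.0510) or 2 (0.0758), and Casp6 and Cycs without naive library 2 (0.261 and 0.148) or papain library 1 (0.188 and 0.0968). Casp6 and Cycs were also lost with median-ratio scaling (0.0643 and 0.0524) and with quantile normalization (0.126 and 0.105). Casp6 and Cycs also rose in CD11c+ eosinophils, where 12.1% of all genes were called. The death receptor gene Fas fell there from 560 and 432 FPKM to 217 and 182 (-1.3 ± 0.30, adjusted p = 0.0274). All 3 of these eosinophil calls were lost without naive eosinophil library 1, naive eosinophil library 2 or CD11c+ library 2, with adjusted p up to 0.193 for Casp6, 0.178 for Cycs and 0.177 for Fas. Fas was at 18 and 16 FPKM in naive natural helper cells, 4.78 ± 0.30 below naive eosinophils (adjusted p = 1.65e-05). Apaf1, the apoptosome scaffold, was lower in papain basophils, at 6 and 3 FPKM, than in papain natural helper cells, at 35 and 32 (-2.70 ± 0.31, adjusted p = 0.000844).

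Of 20 regulators of the family, 19 were tested, and in papain basophils 1 rose and 4 fell (median -0.22, against 0.50 for all genes). Of all genes 26.0% were called in this comparison, 22.1% higher and 3.88% lower. The subunits Rel and Nfkb1 of NF-kB fell: Rel went from 95 and 86 FPKM to 36 and 22 (-1.65 ± 0.28, adjusted p = 0.00439) and Nfkb1 from 525 and 424 FPKM to 212 and 215 (-1.14 ± 0.22, adjusted p = 0.0072). Mdm2, the ligase that restrains p53, went from 30 and 17 FPKM to 46 and 70 (1.29 ± 0.30, adjusted p = 0.0157). The Mdm2 call was lost without naive basophil library 2 (adjusted p = 0.106), without papain basophil library 2 (0.0766) and with quantile normalization (0.0558). In natural helper cells, where 0.786% of all genes were called, the only call in this list was Stat3, a transcription factor downstream of several cytokine receptors. It went from 52 and 45 FPKM to 153 and 172 (1.73 ± 0.30, adjusted p = 0.0386), a call lost without any 1 of the 4 libraries (adjusted p from 0.126 to 0.310). In CD11c+ eosinophils Nfkb2 fell from 311 and 248 FPKM to 139 and 122 (-1.09 ± 0.23, adjusted p = 0.0197), a call lost without naive eosinophil library 1 (adjusted p = 0.141) or CD11c+ library 2 (0.106). Among naive cells Stat5a, which transmits cytokine survival signals, was at 83 and 54 FPKM in basophils against 7 and 16 in eosinophils (2.54 ± 0.43, adjusted p = 0.00499) and 16 and 10 in natural helper cells (2.31 ± 0.43, adjusted p = 0.00647). Pim2, a survival kinase, was in naive cells at 118 and 85 FPKM in basophils and 91 and 111 in eosinophils, against 9 and 15 in natural helper cells (adjusted p = 0.0258 and 0.0183). Both Pim2 calls were lost without any 1 of their 4 libraries, with adjusted p up to 0.140 and 0.110.

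Of 12 NF-kB response genes, 2 rose and 2 fell in papain basophils while Bcl2a1 rose (median 0.03, against 0.50 for all genes), where 22.1% of all genes rose and 3.88% fell. Icam1, an adhesion molecule, went from 70 and 61 FPKM to 199 and 681 (2.48 ± 0.58, adjusted p = 0.0165) and the cytokine gene Tnf from 37 and 18 FPKM to 71 and 101 (1.67 ± 0.44, adjusted p = 0.0249). Nfkbiz, a nuclear inhibitor-like regulator, went from 289 and 350 FPKM to 89 and 158 (-1.42 ± 0.32, adjusted p = 0.0148). Without naive basophil library 2 none of these 3 was called (adjusted p = 0.0931 for Icam1, 0.170 for Tnf and 0.0944 for Nfkbiz). Icam1 (0.0728) and Tnf (0.114) were also lost without papain basophil library 2, Nfkbiz (0.0610) without papain library 1, and Tnf (0.0664) with quantile normalization. In eosinophils Nfkbie fell in both gates, from 83 and 57 FPKM to 34 and 24 in CD11c- (adjusted p = 0.0458) and to 28 and 21 in CD11c+ cells (adjusted p = 0.00975). The Nfkbie call was lost in CD11c- cells without any 1 of the 4 libraries (adjusted p up to 0.342), and in CD11c+ cells without naive eosinophil library 1 (0.0796) or CD11c+ library 2 (0.0651). In natural helper cells limma called none of the 12, against 0.786% of all genes.

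Of 12 p53 target genes 3 rose in papain basophils and none fell, while Bbc3, a p53 target as well, fell (median of the 12 genes 0.30, against 0.50 for all genes). The 3 of 12 are near the 22.1% of all genes that rose. Besides Mdm2, which is in both lists, these were Phlda3, from 1 and 0 FPKM to 9 and 8 (2.75 ± 0.49, adjusted p = 0.00551), and Tnfrsf10b, a death receptor gene, from 2 and 2 FPKM to 6 and 13 (1.72 ± 0.36, adjusted p = 0.0107). The Tnfrsf10b call was lost without naive basophil library 2 (adjusted p = 0.0611) and with quantile normalization (0.0562), whereas Phlda3 was called without each library in turn. In CD11c+ eosinophils, where 12.1% of all genes were called, 2 of the 12 rose. Limma called none in CD11c- eosinophils, against 2.24% of all genes, and none in natural helper cells, against 0.786%. Against the 3'UTRKO library none of the tested genes of these 5 lists was called, where 0.568% of all genes were.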

How the data were processed

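RNA-seq libraries from 15 sorted lung samples in 8 groups were analysed from the table deposited by the authors, which gives 1 score per gene symbol and library: FPKM rounded to whole numbers, read as such from the values and the tools. Per the submitters' processing notes, TopHat 1.4.0 and Cufflinks 1.3.0 were used with the mm9 genome; annotation, filters and rounding are not given in the sources used here. Per the labels' protocols, poly(A) RNA was used with 10 ng of input. Read depth is unknown, so precision comes only from the spread between libraries. FPKM sums ranged from 374841 to 570208 and genes above 0 from 9995 to 13049 per library. Digit-grouping commas were removed from 1008 cells, and 3 cells next to 0 were set to 0.

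A gene entered the test if 2 or more libraries reached 1 FPKM (14255 genes, the Bcl2a1 copies counted as 1). limma 3.58.1 (R 4.3.3) was fitted to log2(FPKM + 1), with 1 coefficient per group over all 15 libraries (7 residual degrees of freedom), moderated by eBayes with a trend. Tests were two-sided with Benjamini-Hochberg adjustment. The script was tested on data simulated for the natural helper cell response, with 200 genes changed. All changes were upward and were placed only in genes well above a few FPKM on average over the libraries. It called 16% of log2 changes of 1, 64% of 2, 90% of 3 and 94% of 4. Of its 177 calls 45 were false, 41 of them in genes with a mean under 5 FPKM. Hardly any true call was possible at such levels in this setting. The simulation therefore cannot show how certain calls at a few FPKM are. There were 15 comparisons, 3 of them differences of responses. Named are all members, up to 3 called genes per pathway list and comparison with 5 FPKM or more in the higher group (largest difference), and the 3 most alike genes per signal. Outside that rule, Pmaip1 in basophils was named after its values were seen. The members and all lists were chosen with earlier results of these data known. Sequences are from GENCODE vM21 (GRCm38), used only for coding sequences since the table is of mm9. Alternatives were a replicate block, a pseudocount of 5, no filter, median-ratio scaling, quantile normalization, separate Bcl2a1 copies, the compared groups alone and leaving out each library; adding Bcl2a1c to the sum was chosen after seeing the data.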

Additional observations from a re-analysis of the deposited data

How the results depend on the processing

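The 24 calls made for the 7 signals never changed direction. Under all 12 alternatives each, 6 calls were kept, and 12 were kept in every fit without 1 library. Of the 24, 20 were kept with the replicate block, 23 with a pseudocount of 5, 19 with no filter, 23 after median-ratio scaling, 20 after quantile normalization, 23 with separate Bcl2a1 copies, 24 with Bcl2a1c added, and 9 with the compared groups alone. That last fit has few residual degrees of freedom and takes the spread from the compared groups only. Over all genes it gave fewer calls than the full fit for the basophil response (490 against 3703) and the CD11c+ response (1038 against 1730). It gave more for the natural helper cell response (542 against 112) and the CD11c- response (1114 against 320). Why calls were lost was not tested. Of 99 calls for genes of the pathway lists none changed direction, 22 were kept under all alternatives and 35 in every fit without 1 library.

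Counts of called signals moved as follows. In papain basophils against naive basophils the count of 5 became 3 with no filter and 0 with the compared groups alone. In papain basophils against papain natural helper cells the count of 6 became 3 with the replicate block, 3 with no filter and 1 with the compared groups alone. The naive basophil counts of 3 (against eosinophils) and 4 (against natural helper cells) each became 1 with the compared groups alone. CD11c- eosinophils against papain natural helper cells went from 2 to 4 after quantile normalization. Counts of 0 became 1 for the CD11c+ response after either rescaling, for the CD11c- response with the compared groups alone, for papain basophils against CD11c- eosinophils after quantile normalization, and for the response of basophils minus that of natural helper cells with a pseudocount of 5 and after both rescalings.

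Leaving out 1 library at a time, the counts ranged from 2 to 5 for the basophil response, 2 to 3 for naive basophils against eosinophils, 2 to 4 for naive basophils and 3 to 4 for naive eosinophils against natural helper cells, 1 to 5 for papain basophils against papain natural helper cells, and 0 to 1 for papain basophils against CD11c- eosinophils and for the response of basophils minus that of natural helper cells or of CD11c- eosinophils. Elsewhere they were as in the full fit. Over all genes, leaving out 1 library gave from 52 to 126 calls for the natural helper cell response (112 in the full fit), 44 to 161 for the CD11c- response (320), 371 to 2070 for the CD11c+ response (1730) and 2 to 498 between the gates (8). The 3703 calls of the basophil response became 1225 without naive basophil library 2 and 490 with the compared groups alone, and the share of them that were higher, 85.1%, became 65.5% with median-ratio scaling and 45.3% with quantile normalization.

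Same-numbered libraries deviated together little, with correlations from -0.15 to 0.12 over 21 pairs of groups, so the numbers are not read as a pairing. The 1 pair over 0.1 was naive and papain basophils, where the Mcl1 call was lost with the replicate block. The replicate block is reported here only.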
